A study of Mus musculus with 4 samples.

Results

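The genes described here encode the subunits of oxidative phosphorylation, together with the complex I assembly factors that share the Nduf prefix. Members were protein-coding genes whose mean reached 1 FPKM and whose symbol begins with Nduf, Sdha to Sdhd, Uqcr, Cox4 to Cox8 or Atp5, or with mt-Nd, mt-Co, mt-Cytb or mt-Atp. FPKM counts fragments relative to the length of a transcript and to the fragment total of its library. Pseudogenes and 2 genes on distal chromosome 11 (GRCm38, from position 110000001) were left out. Of 104 candidates, 94 reached the minimum, 83 encoded in the nucleus and 11 in the mitochondrial genome. They were among 12767 genes tested and 50679 genes in the deposited table. Only mt-Nd3 (mean 1.77 FPKM) and Atp5s (1.79) lay between 1 and 2 FPKM, and the nearest candidates under the minimum were mt-Co2 (0.753) and Cox7a1 (0.460).

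RNA was sequenced from mammary tumour cells of mice that carry PyMT, the polyoma middle T oncogene. A pair of libraries, WT 1 and WT 2, came from PCNA WT/PyMT tumours, and the other pair, 211F 1 and 211F 2, from PCNA 211F/PyMT tumours. PCNA is the sliding clamp of DNA replication, and both genotypes carry PyMT. Tumours were taken at 10 weeks of age and dissociated, cells were captured through the epithelial surface protein EpCAM, and they were plated in DMEM/F-12 medium with 10% serum. The labels describe the cells of every library as luminal epithelial adenocarcinoma. The promoter that drives PyMT, the zygosity and making of the 211F allele, and whether the paired libraries came from separate animals are not given. The p-values therefore measure the spread between these libraries.

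The libraries did not carry the same cell state. Where 4 values stand together, they follow the order WT 1, WT 2, 211F 1 and 211F 2. Summed over 12 epithelial markers, levels were 3129, 7.48, 3310 and 3628 FPKM, so the labelled epithelial type was nearly absent from WT 2. Epcam, the capture antigen, was at 444, 0.893, 77.3 and 450 FPKM, and Cdh1 (E-cadherin) at 257, 0.533, 102 and 202. Summed over 9 mesenchymal markers, levels were 394, 4397, 4643 and 65.01 FPKM. All 12 epithelial markers had a fitted difference above 0 and all 9 mesenchymal markers one below 0, beside 53.1% of all genes above 0. Some of these were close to 0, such as Elf3 at 0.001 and Cdh2 at -0.004. The groups did not overlap in 2 of the epithelial markers, both higher in 211F, beside 15.2% of all genes. They overlapped in all 9 mesenchymal markers. Fibroblast markers (9 genes) summed to 1106 FPKM in WT 2 and to between 6.32 and 33.8 elsewhere. Smooth muscle and pericyte markers (7 genes) summed to 3.74, 133, 642 and 0.718. Myeloid markers (7 genes) summed to 69.6 in WT 1, carried by Cd14 at 67.2, and to between 7.78 and 14.96 elsewhere, with the pan-leukocyte gene Ptprc at or below 0.0180 in every library. Endothelial, lymphoid, adipocyte and striated muscle lists summed to at most 14.48 FPKM in any library. The part of these differences in the results below was not tested. Values without WT 2, where given, do not test it. They set WT 1 alone against 211F libraries whose mesenchymal sums were 4643 and 65.01 FPKM. In bulk RNA, fewer cells of a type and less RNA per cell cannot be told apart.

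Oxidative phosphorylation passes electrons from NADH and succinate along complexes I to IV of the inner mitochondrial membrane to oxygen, and complex V, the ATP synthase, uses the resulting proton gradient to make ATP. Complexes I, III, IV and V each combine subunits made from nuclear genes with subunits made inside the organelle from mitochondrial DNA, whereas complex II is wholly nuclear. The mitochondrial genome is transcribed as long polycistronic RNAs, which are cut at the transfer RNAs that lie between most of its protein genes.

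No member passed the test between the genotypes, and the replicates of a genotype often differed more than the genotypes did. Nuclear members had a median difference of -0.05 and mitochondrial members one of 0.30 (211F minus WT, log2(FPKM + 1)), beside 0.03 over all 12767 genes. Mitochondrial members stood above nuclear members in every library, by 4.09, 4.64, 4.86 and 4.77 log2 units between the medians. The protein genes of the mitochondrial genome were taken first, then the nuclear members complex by complex, and then the pattern over libraries.

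The mitochondrial members of highest FPKM were mt-Atp8, a small subunit of ATP synthase, and mt-Co1, the catalytic subunit of cytochrome c oxidase. FPKM is relative to length, and mt-Atp8 is a short gene (chrM:7766-7969) beside mt-Co1 (chrM:5328-6872). The part of length in the mt-Atp8 level was not tested. mt-Atp8 stood at 16524, 22141, 17971 and 21797 FPKM. mt-Co1 stood at 9310, 6383, 6782 and 7317 FPKM. Replicates of mt-Atp8 differed more within each genotype than the genotype means of 19332 and 19884 did. mt-Co1 was highest in WT 1 and lowest in WT 2, with both 211F libraries between them. Fitted differences were 0.05 ± 0.51 for mt-Atp8 and -0.13 ± 0.42 for mt-Co1 (± SE, limma adjusted p = 0.9999 for both), and without WT 1 both turned sign, to -0.16 and 0.14.

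mt-Nd1, mt-Nd2, mt-Nd4, mt-Nd5 and mt-Nd6, mitochondrial subunits of complex I, stood between 432 FPKM (mt-Nd4 in WT 1) and 4232 FPKM (mt-Nd1 in 211F 2). mt-Nd1, a membrane subunit near the quinone site, stood at 2613, 2800, 3208 and 4232 FPKM. mt-Nd1 was higher in both 211F libraries than in either WT library, a difference of 0.45 ± 0.34 (SE, limma adjusted p = 0.9999). It was 0.25 without 211F 2 and 0.17 after quantile normalization. mt-Nd2 stood at 1131, 1765, 1650 and 2023 FPKM, and mt-Nd5, a proton-pumping subunit, at 1375, 1803, 1789 and 2269. Both were lowest in WT 1 and highest in 211F 2, and the genotypes overlapped. mt-Nd6, the only protein gene read from the other strand of the circle, followed the same order at 746, 1364, 1068 and 1440.4 FPKM. mt-Nd4, whose frame overlaps that of mt-Nd4l by 7 bases, stood at 432, 602, 541 and 602.

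mt-Cytb, the only subunit of complex III made in the mitochondrion, stood at 1901, 3499, 3140 and 2700 FPKM. WT 1 and WT 2 held its lowest and highest values, so its groups overlapped completely. Of the 11 mitochondrial members, 8 were lowest in WT 1, where 27.5% of all genes tested were lowest. A further 3 (mt-Co1, mt-Nd3 and mt-Atp6) were lowest in WT 2, where 29.2% of all genes tested were lowest. The difference was above 0 for 10 of the 11, all but mt-Co1 (0.28 after quantile normalization), beside 53.1% of all genes tested. Their median difference was 0.05 without WT 1 and 0.55 without WT 2, so its size moved with the WT library used.

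**Figure D1:**
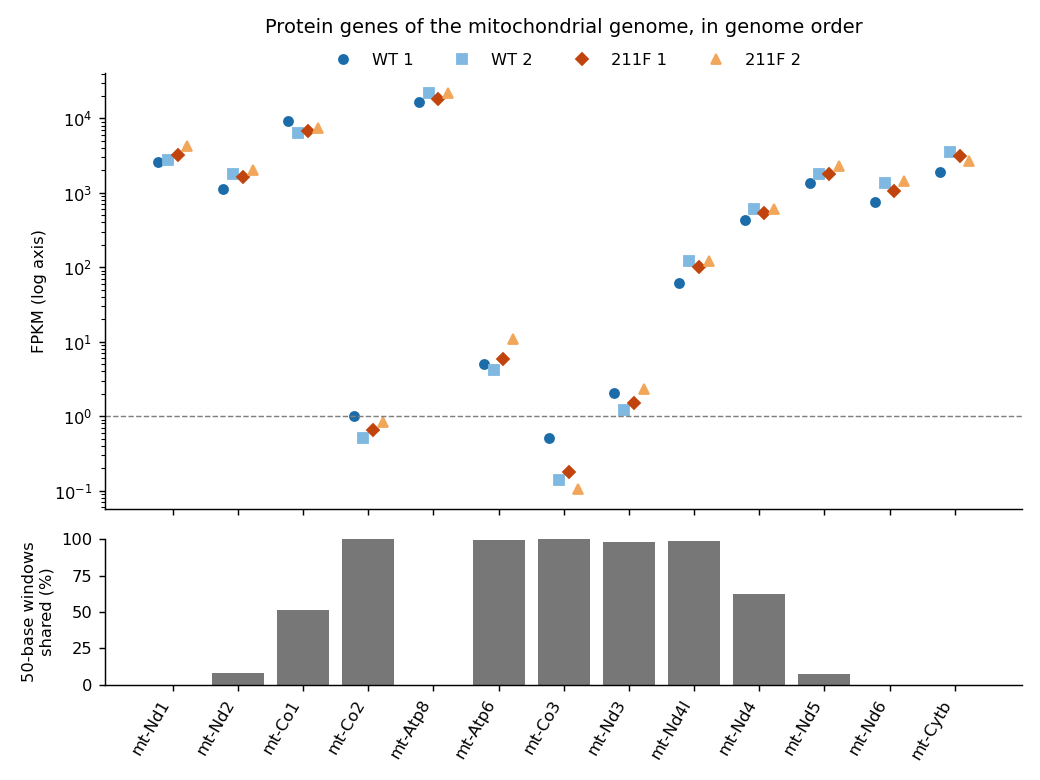
Upper panel: FPKM on a log axis of the 13 protein genes of the mitochondrial genome in genome order, 1 point per library, with a dashed line at the minimum of 1 FPKM. Lower panel: percent of each gene's 50-base windows that also occur in annotated transcripts of other genes; mt-Co2, mt-Atp6, mt-Co3 and mt-Nd3, all at 97.99% or more, are the genes under 20 FPKM, while mt-Nd4l reaches 61.1 to 123 FPKM at 98.8%.

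The 13 mitochondrial protein genes did not stand at like levels, and the low ones shared their sequence with nuclear copies. Shared sequence was measured as the percent of a gene's 50-base windows that also occur in an annotated transcript of another gene (GENCODE M21). It was 100% for mt-Co2, 99.9% for mt-Co3, 99.5% for mt-Atp6, 98.8% for mt-Nd4l and 97.99% for mt-Nd3. It was 62.2% for mt-Nd4 and 51.1% for mt-Co1, 8.19% for mt-Nd2 and 7.61% for mt-Nd5, and 0 for mt-Nd1, mt-Nd6, mt-Cytb and mt-Atp8. mt-Co2, the copper-binding subunit of complex IV, was listed at 1.02, 0.511, 0.649 and 0.834 FPKM. mt-Co3, the other mitochondrial core subunit of that complex, was listed at 0.515, 0.140, 0.177 and 0.105. mt-Nd3 stood at 2.06, 1.20, 1.51 and 2.32 FPKM, and mt-Nd4l at 61.1, 123, 100.02 and 120.4. These 4 genes overlapped between the genotypes. How reads that map to several places were counted is not given in any source used here, and its part in these levels was not tested.

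The best-matching copies of the genes with 51.1% or more of their windows shared lie together on chromosome 1 (GRCm38, between 24611535 and 24616197, minus strand). They are annotated as unprocessed pseudogenes. Those of mt-Nd2 and mt-Nd5 are pseudogenes on chromosomes 2 and 13. mt-Co2 matched Gm28661 in 681 of 681 aligned bases, mt-Atp6 matched Gm10925 in 678 of 678, and mt-Co3 matched Gm28437 in 783 of 783. mt-Nd4l matched Gm10222 in 294 of 294 bases, and mt-Nd4 matched Gm28439 over its first 876 bases, all identical. mt-Nd3 matched Gm28438 in 344 of 345 bases, with the substitution T3C (mitochondrial base, position from the first base of the gene, copy base). The copies themselves were low: Gm28437 stood at 0.234, 0.0839, 0 and 18.5 FPKM, and Gm28439 at 0.242, 3.26, 18.2 and 3.31. The first 60 bases of mt-Co3 and mt-Nd3 are printed with those of their copies, since a fragment from the first pair cannot be assigned by its letters, and mt-Cytb is printed as a gene with no shared window. The sequences are from GENCODE M21 transcripts, 5′ to 3′, and the capitals mark the base at which mt-Nd3 and its copy differ.
mt-Co3 (chrM:8607-8666, plus strand): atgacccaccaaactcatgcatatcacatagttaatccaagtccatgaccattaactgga
Gm28437 (chr1:24613912-24613971, minus strand): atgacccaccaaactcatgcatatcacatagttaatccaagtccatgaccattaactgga
mt-Nd3 (chrM:9459-9518, plus strand): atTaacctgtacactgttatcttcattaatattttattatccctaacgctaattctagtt
Gm28438 (chr1:24613060-24613119, minus strand): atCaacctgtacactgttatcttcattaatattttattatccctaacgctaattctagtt
mt-Cytb (chrM:14145-14204, plus strand): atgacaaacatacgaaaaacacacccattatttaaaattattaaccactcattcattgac

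The pair mt-Atp8 and mt-Atp6 shows how far apart neighbours of one transcript stood in the table. Their frames overlap by 43 bases, in which the capitals below mark the start codon of mt-Atp6. mt-Atp6, the proton channel subunit of ATP synthase, stood at 5.02, 4.18, 5.88 and 10.9 FPKM, beside a mean of 19608 for mt-Atp8. The mt-Atp6 values were higher in both 211F libraries, with 211F 2 well above the rest, and the difference was 0.69 ± 0.43 (SE, limma adjusted p = 0.9999). It was 0.30 without 211F 2 and 1.087 without 211F 1. mt-Atp8 alone made up 3.04%, 4.03%, 3.18% and 3.95% of all FPKM. All genes of the mitochondrial genome together made up 6.43%, 7.43%, 6.50% and 7.90%, and the 83 nuclear members 1.74%, 1.73%, 1.56% and 1.89%. Both of these shares were highest in 211F 2.
mt-Atp8 and mt-Atp6 (chrM:7927-7969, plus strand): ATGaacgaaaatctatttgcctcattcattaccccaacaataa

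The mitochondrial ribosomal RNAs differed from most of the protein genes in the place of WT 1 among the libraries. mt-Rnr1, the small subunit RNA, stood at 509, 107, 187 and 536 FPKM. mt-Rnr2, the large subunit RNA, stood at 408, 179, 259 and 506. Both were high in WT 1 and 211F 2, the libraries with low mesenchymal markers, and low in WT 2 and 211F 1. The protein genes, by contrast, were mostly lowest in WT 1. 211F 2 was the highest library in both ribosomal RNAs and also in 6 of the 11 mitochondrial members. The part of RNA selection during library preparation in the ribosomal RNA levels was not tested.

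Nuclear and mitochondrial members were compared by the difference between their median levels in each library. The nuclear median was 6.06, 6.15, 5.83 and 6.22 log2 units, or 65.5, 69.8, 56.0 and 73.3 FPKM. The mitochondrial median was 10.14, 10.79, 10.69 and 10.98, or 1131, 1765, 1650 and 2023 FPKM. In every library this median was the value of a single gene, mt-Nd2. The nuclear median was lowest in 211F 1 and the mitochondrial median in WT 1. The mitochondrial minus nuclear difference was 4.36 ± 0.39 in WT and 4.81 ± 0.06 in 211F (SD, n = 2 each), higher in both 211F libraries than in either WT library, by 0.45. Without WT 1 it was 0.17, and without WT 2 it was 0.72. A choice made after seeing the data left out the 3 members of 90% or more shared windows. The difference between the medians was then 4.80 ± 0.27 in WT and 5.22 ± 0.23 in 211F (SD, n = 2 each). As summed shares of all FPKM, the genotypes overlapped in both sets. Mitochondrial protein genes made up 6.26%, 7.38%, 6.42% and 7.71%, and the nuclear members 1.74%, 1.73%, 1.56% and 1.89%.

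**Figure D2:**
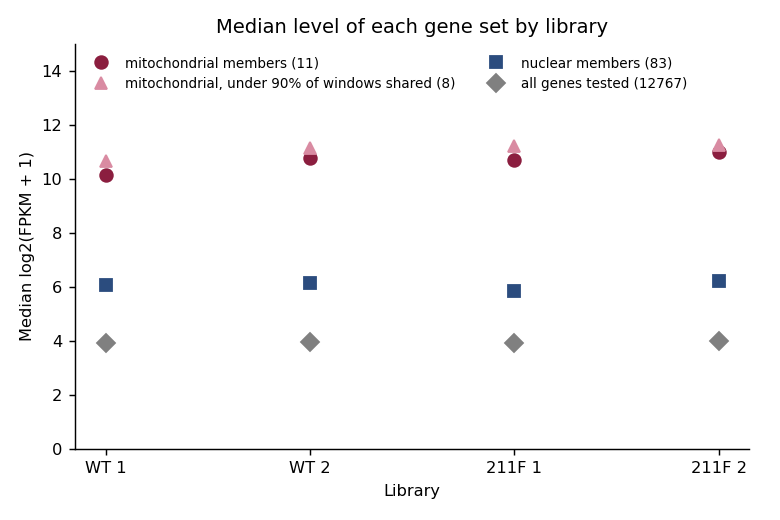
Median log2(FPKM + 1) of the mitochondrial members, the mitochondrial members with under 90% of windows shared, the nuclear members and all genes tested, 1 point per library. The mitochondrial median is lowest in WT 1 (10.14), the nuclear median is lowest in 211F 1 (5.83), and the median of all genes stays between 3.93 and 4.003.

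In the limma fit over 12767 genes, 0 of 94 members passed an adjusted p of 0.05, as did 0 of all genes (0.0%), higher or lower, with 0.9999 as the lowest adjusted p. Below 0.05 before adjustment limma had 1 member, higher in 211F, and 0 lower, beside 1.89% of all genes (0.893% higher and 0.995% lower). The groups did not overlap in 26 members, beside 26.8% of all genes. Of these, 11 were higher in both 211F libraries, beside 15.2% of all genes, and 15 were lower, beside 11.6%. All 15 lower members were nuclear. Without WT 2, limma had 0 members past the adjusted or the unadjusted threshold, and the median difference of the nuclear members was -0.04. With 2 libraries a genotype, the smallest two-sided p of an exact permutation test is 0.3333.

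**Figure D3:**
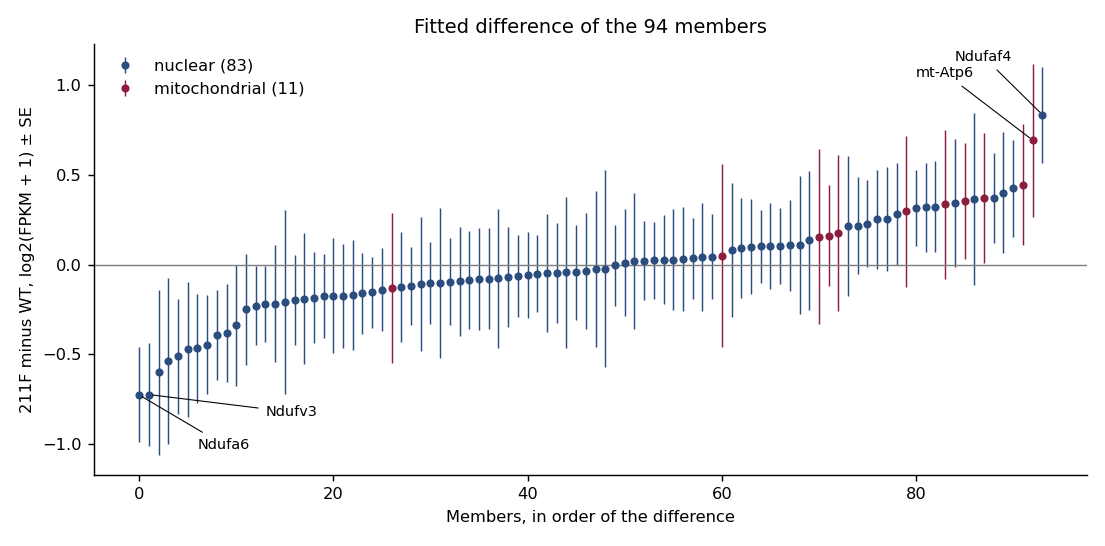
Fitted difference (211F minus WT, log2(FPKM + 1)) of each of the 94 members with its standard error, in order of size, nuclear members in blue and mitochondrial members in red. Ndufaf4 (0.84) and mt-Atp6 (0.69) lie at the upper end and Ndufa6 (-0.73) and Ndufv3 (-0.72) at the lower end; 10 of 11 mitochondrial members lie above 0.

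Complex I, the entry point for electrons from NADH, contributed 43 nuclear members. Its 7 nuclear core subunits, which carry the flavin and iron-sulfur clusters, had a median of 39.5, 49.2, 42.9 and 55.3 FPKM. Ndufs8, an iron-sulfur subunit, was the least abundant at 25.9, 27.5, 25.0 and 24.5 FPKM. Ndufs7, the subunit that holds the last iron-sulfur cluster, stood at 31.9, 40.5, 42.9 and 55.1 FPKM. It was higher in both 211F libraries, by 0.42 ± 0.27 (SE, limma adjusted p = 0.9999), which was 0.26 without WT 1 and 0.25 without 211F 2. Ndufs1, the largest core subunit, stood at 39.5, 35.4, 42.9 and 55.3 FPKM, with the 211F libraries again above both WT libraries.

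The 29 accessory subunits of complex I, which surround the core, had a difference above 0 in 9 and below 0 in 20, with a median of -0.09. Ndufa6, an accessory subunit of the LYR family, stood at 85.3, 118, 63.8 and 56.9 FPKM. Both 211F libraries lay below both WT libraries, a difference of -0.73 ± 0.26 (SE, limma unadjusted p = 0.0512, adjusted p = 0.9999). Ndufv3, an accessory subunit beside the flavin site, stood at 48.8, 69.8, 32.4 and 37.6 FPKM. It too was lower in both 211F libraries, by a difference of -0.72 ± 0.28 (SE, limma adjusted p = 0.9999), which was -0.47 without WT 2. Ndufa10 was the accessory subunit with the largest difference above 0, at 62.1, 51.0, 62.8 and 79.4 FPKM (0.32 ± 0.25, SE). It was 0.16 without 211F 2 and 0.18 without WT 2. Here WT 1 and 211F 1 were close to equal. Ndufa5 had the widest range of all members, 1.35 log2 units, at 27.9, 49.5, 18.7 and 34.1 FPKM, and Ndufs4 the narrowest, 0.13, at 10.9, 9.92, 10.2 and 9.95. Abundance ran from Ndufa11 (mean 9.18 FPKM) to Ndufa12 (mean 126).

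The 7 complex I assembly factors, which help to build the complex but are not part of it, had lower medians than its subunits, 7.995 to 8.63 FPKM. Ndufaf4 was the member with the smallest p. It stood at 11.9, 10.04, 19.4 and 21.3 FPKM. Both 211F libraries were well above both WT libraries, and the replicates lay close together. The difference was 0.84 ± 0.27 (SE, limma unadjusted p = 0.0353, adjusted p = 0.9999). Without WT 2 it was 0.72, with a limma unadjusted p of 0.115. The other 6 factors had smaller differences, and 3 of them (Ndufaf1, Ndufaf6 and Ndufaf7) were lower in both 211F libraries, beside 11.6% of all genes. Their differences were small, at -0.09, -0.17 and -0.17. Ndufaf7, a methyltransferase, stood at 6.69, 7.31, 5.61 and 6.60 FPKM.

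Complex II, succinate dehydrogenase, also a citric acid cycle enzyme, had groups that overlapped in each of its 4 subunits. Sdha, the flavoprotein, was the most abundant at 201, 160, 162 and 184 FPKM. Sdhb, the iron-sulfur subunit, stood at 96.6, 65.1, 92.7 and 101, and Sdhc, a membrane anchor, at 47.4, 40.1, 36.5 and 40.5. WT 2 held the lowest value of Sdha and Sdhb. The Sdhb difference was 0.28 ± 0.28 (SE, limma adjusted p = 0.9999) and came to 0.0016 without WT 2.

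Complex III, which hands electrons from ubiquinol to cytochrome c, had its core subunits and some of its small subunits at opposite ends in WT 2. Uqcrc1, a core subunit, stood at 126, 75.4, 118 and 141 FPKM. Uqcrc2, its partner core subunit, stood at 112, 59.9, 85.3 and 107, and Uqcrfs1, the Rieske iron-sulfur protein, at 64.9, 35.1, 46.9 and 58.8. All 3 were lowest in WT 2, the library with hardly any epithelial marker RNA. The small subunits Uqcrq (81.9, 155, 132 and 112 FPKM) and Uqcr10 (108, 150, 103 and 84.1) were highest in WT 2 instead. Uqcr10 was lower in both 211F libraries, a difference of -0.45 ± 0.28, whereas Uqcrc1 had a difference of 0.40 ± 0.34 with overlapping groups (± SE, limma adjusted p = 0.9999 for both). Without WT 2 these were -0.21 and 0.04. Of the remaining subunits Uqcrb had the narrowest range, at 135, 140, 143 and 153 FPKM.

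Complex IV, cytochrome c oxidase, had 12 nuclear members, with medians of 160, 170, 143 and 146 FPKM, of which 4 had a difference above 0 and 8 below. Cox4i1, a subunit that binds ATP, was the most abundant at 388, 256, 330 and 306 FPKM. Cox6c, a small membrane subunit, stood at 160, 348, 177 and 136. WT 2 was far above the other 3 libraries, which lay close together, and the difference was -0.60 ± 0.46 (SE, limma adjusted p = 0.9999). Cox5a, which faces the matrix, stood at 65.5, 69.3, 79.3 and 89.4 FPKM (0.32 ± 0.21). Cox8a, one of the smallest subunits, stood at 233, 308, 194 and 214 FPKM (-0.39 ± 0.25). Cox7a2l, a factor of respiratory supercomplexes, stood at 99.7, 79.2, 58.7 and 78.6 FPKM (-0.38 ± 0.27, ± SE for all 3). WT 2 and 211F 2 were nearly equal in Cox7a2l, while in Cox5a and Cox8a the genotypes lay further apart. Without WT 2 the Cox8a difference was -0.19, and the Cox7a2l difference was -0.17 without 211F 1 and -0.22 without WT 1.

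Complex V, the ATP synthase, had 15 nuclear members, 8 with a difference above 0 and 7 below. Atp5b, the catalytic beta subunit, was the most abundant nuclear member at 2187, 2086, 2401 and 2702 FPKM, a difference of 0.25 ± 0.29 (SE, limma adjusted p = 0.9999) that was 0.17 without 211F 2. Atp5a1, the alpha subunit that pairs with it in the catalytic head, stood far lower at 490, 244, 349 and 570 FPKM. Atp5b was higher in both 211F libraries, while Atp5a1 was lowest in WT 2 and highest in 211F 2, with overlapping groups. Atp5k, a small membrane subunit, stood at 43.0, 103, 50.5 and 85.4 FPKM, with the replicates of both genotypes further apart than the genotypes. Atp5mpl, another small membrane subunit, was the least abundant at 51.8, 46.6, 47.0 and 83.5, high in 211F 2 only. Atp5s, an accessory factor that is not counted among the 15 subunits, stood at 1.92, 1.71, 1.64 and 1.90 FPKM.

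The ring of subunit c, through which protons turn the synthase, is encoded by 3 nuclear genes that give the same mature protein. Atp5g1 stood at 78.9, 105, 118 and 110 FPKM. Atp5g2 stood at 134, 219, 115 and 125 FPKM, and Atp5g3 at 148, 173, 133 and 154. Atp5g1 was higher (0.32 ± 0.25) and Atp5g2 lower (-0.51 ± 0.32) in both 211F libraries (± SE, limma adjusted p = 0.9999 for both). The Atp5g1 difference was 0.11 without WT 1 and 0.52 without WT 2, and the Atp5g2 difference -0.86 and -0.16. The share of Atp5g1 in the summed FPKM of the 3 genes was 21.9%, 21.1%, 32.2% and 28.2%. That of Atp5g2 was 37.2%, 44.1%, 31.4% and 32.2%, and that of Atp5g3 was 41.0%, 34.8%, 36.3% and 39.6%. These shares were not tested, and 38.3% of the 50-base windows of Atp5g2 also occur in transcripts of other genes.

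In the subunit families with a tissue-specific isoform, the general isoform supplied nearly all of the RNA. Cox4i1, Cox6a1, Cox6b1, Cox7b, Cox8a and Ndufa4 each made up at least 99.87% of the FPKM of its family in every library, and Cox7a2 between 98.5% and 100%. Cox7a1, the heart and muscle form, was listed at 0.578, 0.910, 0 and 0.354 FPKM. Ndufa4l2, a form known as a hypoxia target, was listed at 0.315, 0.0660, 0 and 0.

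**Figure D4:**
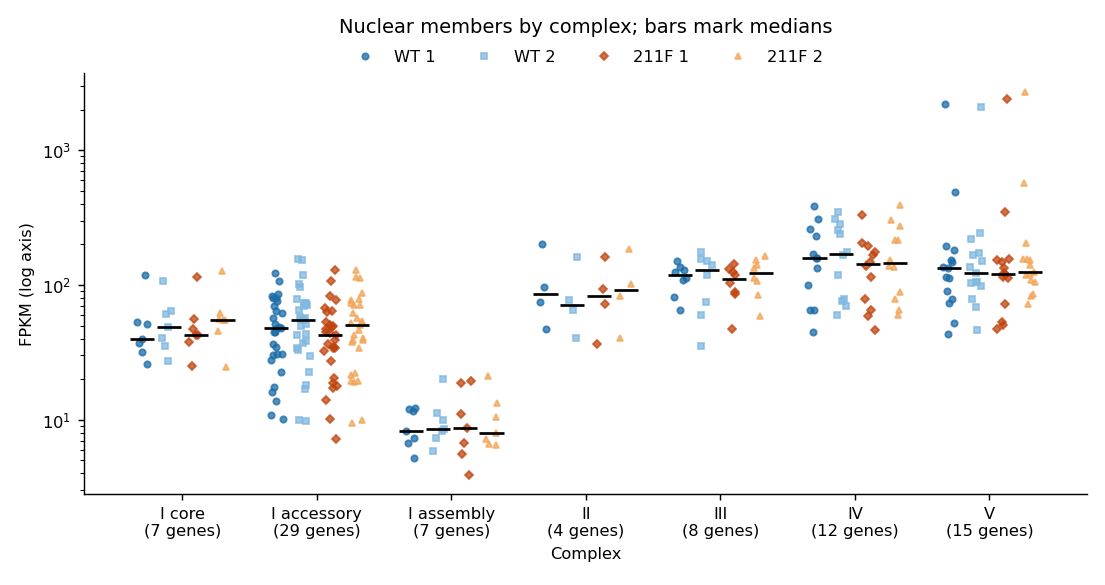
FPKM on a log axis of the 82 nuclear members of complexes I to V, 1 point per gene and library, with bars at the median of each library. Assembly factors sit lowest (medians 7.995 to 8.63 FPKM), complex IV highest (143 to 170), Atp5b stands alone at the top (2086 FPKM or more). The medians of both 211F libraries lie below those of both WT libraries in complex IV.

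The ranges of the nuclear members over the 4 libraries were set beside those of all genes tested. The range from the lowest to the highest library was under 0.5 log2 unit in 39 of 83 nuclear members (47.0%), beside 23.0% of all genes. Among genes whose mean reached 20 FPKM it was so in 30 of 70 nuclear members (42.9%), beside 28.2%. The range reached 1 log2 unit in 10 members, 9 of them nuclear, beside 40.0% of all genes. The difference between these shares was not tested. The widest ranges after Ndufa5 were those of Cox6c (1.35), Ndufa7 (1.33), Atp5k (1.24) and Atp5a1 (1.22).

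Taken pair by pair, every difference of 1 log2 unit or more involved WT 2. WT 2 differed by that much from WT 1 in 4 members (24.5% of all genes), from 211F 1 in 4 (17.1%) and from 211F 2 in 5 (24.7%). The pairs without WT 2 had 0 such members, beside 20.1% of all genes for WT 1 and 211F 1, 10.4% for WT 1 and 211F 2, and 19.1% for both 211F libraries. By this count both WT libraries differed in more members than both 211F libraries did.

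The order of the libraries in the nuclear members was uneven too. 211F 2 was the highest library in 34 of 83 nuclear members (26.2% of all genes), WT 2 in 29 (30.2%), WT 1 in 17 (21.2%) and 211F 1 in 3 (22.4%). 211F 1 was the lowest in 33 (23.1% of all genes) and 211F 2 in 9 (20.2%). Among the 38 nuclear members with transcripts under 600 bases, the median of 211F 1 minus the mean of the other 3 libraries was -0.29 log2 units, beside -0.10 for all 1144 genes of that length. Among the 11 of 1000 bases or more it was 0.05. The nuclear members were short, with a median of 627 bases against 1348 for all genes tested. These length classes were chosen after seeing the data, and the part of transcript length in the low 211F 1 values was not tested.

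The 4 nuclear members on chromosome 15 were all highest in WT 2, at 348 FPKM for Cox6c, 118 for Ndufa6, 155 for Ndufb9 and 219 for Atp5g2. Over the libraries Ndufb9, an accessory subunit of complex I, stood at 83.2, 155, 76.8 and 87.0 FPKM. The median of WT 2 minus the mean of the other 3 libraries was 0.86 log2 units over the 4 members and 0.05 over the 79 nuclear members elsewhere. All 497 genes tested on chromosome 15 had a median of 0.50, and 323 of them were highest in WT 2, beside a median of -0.02 for the 12270 genes elsewhere. Chromosomes 17 and 19 leaned the same way, with medians of 0.29 and 0.22 over their genes, of which 54.0% and 43.1% were highest in WT 2. Chromosomes 12, 13, 16 and 18 leaned the other way in WT 2, with medians of -0.26, -0.26, -0.22 and -0.37. Shifts of a chromosome were not limited to WT 2. In 211F 2 chromosome 12 had a median of 0.38, with 56.7% of its genes highest there. All 7 members on chromosome 17 and all 4 on chromosome 19 were above the mean of the other 3 libraries in WT 2. So were all 3 on chromosome 11 and all 3 on chromosome X, whose genes had medians near 0 (0.06 and 0.004). The 4 members on chromosome 15 had fitted differences of -0.73, -0.60, -0.51 and -0.47, in the order Ndufa6, Cox6c, Atp5g2 and Ndufb9. These were among the 6 lowest of the nuclear members. Without WT 2 they came to -0.49, -0.04, -0.16 and -0.03. What gives these chromosomes their levels in WT 2 was not tested. With the 4 members left out, the nuclear median difference was -0.04.

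**Figure D5:**
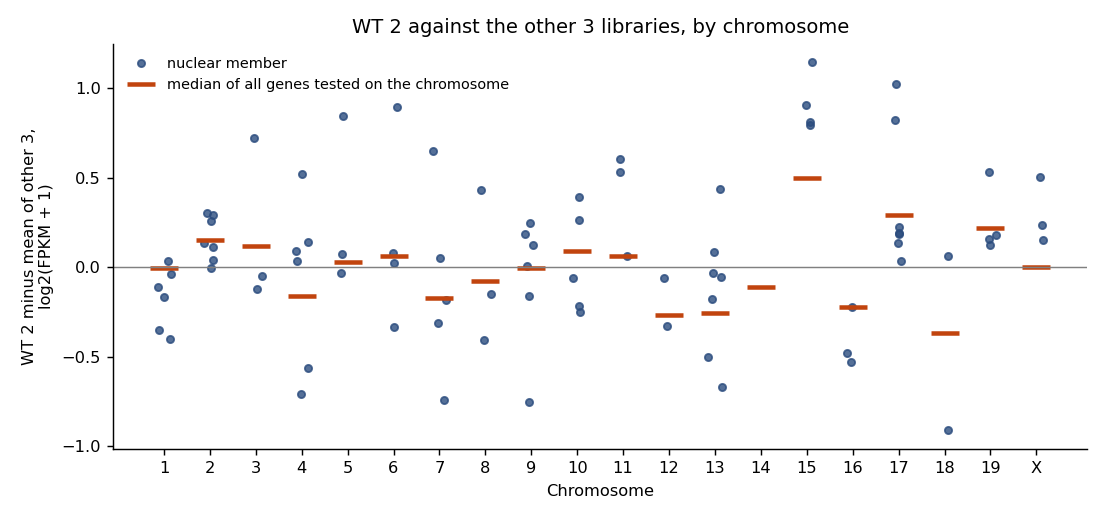
WT 2 minus the mean of the other 3 libraries (log2(FPKM + 1)) for each nuclear member, by chromosome, with a bar at the median of all genes tested on that chromosome. The 4 members on chromosome 15 (median 0.86) lie above 0 together with the chromosome's genes (median 0.50), as do those on chromosomes 17 and 19 (gene medians 0.29 and 0.22). The members on chromosomes 11 and X also lie above 0, where the gene medians are near 0 (0.06 and 0.004). The gene medians of chromosomes 12, 13, 16 and 18 lie below 0 (-0.26, -0.26, -0.22 and -0.37).

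The promoters of the nuclear members were searched for motifs known from respiratory genes, in the window from 250 bases before to 50 after the RefSeq start (GRCm38.p6). NRF1, the factor GABP of the ETS family, and YY1 are known regulators of such genes. A window was found for 70 of the 83 nuclear members. On either strand, the NRF1 motif, the letters GCGCA, any 1 letter and then GCGC, was in 18 of them (25.7%), beside 7.17% of 17491 genes. The ETS motif CCGGAAG was in 16 (22.9%, beside 12.9%) and the YY1 motif AAGATGGCG in 7 (10%, beside 2.14%). At least 1 of the 3 was in 36 members (51.4%, beside 19.96%). The 17491 genes are protein-coding genes with a window, whatever their level, whereas members had to reach a mean of 1 FPKM. The median GC content of the windows was 58.6% in members and 56.3% in those 17491 genes. A match describes letters and is neither a bound site nor a cause. The 250 bases before the start are printed for Ndufaf4, the member with the smallest p, for Atp5g2, the ATP synthase member with the largest difference below 0, and for Atp5k, one of the widest in range. The sequences are from RefSeq, 5′ to 3′ on the strand of the gene, and the capitals mark the NRF1 motif.
Ndufaf4 (chr4:24897833-24898082, plus strand): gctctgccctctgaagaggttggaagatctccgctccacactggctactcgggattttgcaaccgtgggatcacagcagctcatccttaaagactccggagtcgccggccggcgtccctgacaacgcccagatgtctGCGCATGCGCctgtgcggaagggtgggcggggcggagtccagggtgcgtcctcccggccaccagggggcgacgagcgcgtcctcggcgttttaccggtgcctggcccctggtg
Atp5g2 (chr15:102671048-102671297, minus strand): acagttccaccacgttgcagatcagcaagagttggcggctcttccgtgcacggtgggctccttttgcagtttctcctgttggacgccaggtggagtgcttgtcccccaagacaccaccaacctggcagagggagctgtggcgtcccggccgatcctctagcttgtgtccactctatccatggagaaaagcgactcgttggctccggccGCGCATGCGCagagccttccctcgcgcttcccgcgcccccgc
Atp5k (chr5:108434400-108434649, minus strand): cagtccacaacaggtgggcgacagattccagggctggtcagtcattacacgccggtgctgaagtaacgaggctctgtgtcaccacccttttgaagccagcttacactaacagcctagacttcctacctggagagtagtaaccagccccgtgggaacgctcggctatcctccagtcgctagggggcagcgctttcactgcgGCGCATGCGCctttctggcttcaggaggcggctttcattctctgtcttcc

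The letters GCGCATGCGC stand at 113 bases before the start in Ndufaf4, 42 in Atp5g2 and 50 in Atp5k (first base of the motif). All 3 genes printed are among the 18 that hold the motif, so its presence in each follows from the choice. Ndufa7, wider in range than Atp5k, had 0 matches. Ndufaf4 was higher in both 211F libraries, Atp5g2 was lower in both, and Atp5k did not separate the genotypes.

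Other genes of the respiratory system were counted from wider lists, and 0 of them passed the limma test at an adjusted p of 0.05. Of 38 assembly factors and cytochrome c genes tested, 23 had a difference above 0 and 15 below, beside 53.1% of all genes above 0. The groups did not overlap in 7 higher and 1 lower, beside 15.2% and 11.6% of all genes. Cycs, the electron carrier between complexes III and IV, stood at 46.6, 54.1, 70.9 and 62.2 FPKM. Cox14, a complex IV assembly factor on chromosome 15, stood at 26.4, 36.7, 17.0 and 20.4 FPKM, and was again highest in WT 2. Timmdc1, a complex I assembly factor, stood at 19.9, 19.0, 30.2 and 26.2 FPKM. In these 3 the groups did not overlap.

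Among the nuclear lists of mitochondrial function, that of genes that cut and stabilise mitochondrial RNA had the highest median difference. Of 21 tested, 19 had a difference above 0 and 2 below, beside 53.1% of all genes above 0, with a median of 0.33. The groups did not overlap in 11 higher and 1 lower, beside 15.2% and 11.6% of all genes. The median difference was 0.31 to 0.40 with any 1 library left out, with 15 to 19 genes above 0. The median level of the list was 13.9, 13.6, 13.7 and 15.6 FPKM, in which the genotypes overlapped. Its summed level was 555, 508, 680 and 605 FPKM, in which they did not. Elac2, which cuts transfer RNAs from the long precursor at the 3′ end, stood at 19.1, 18.1, 35.2 and 28.1 FPKM. The difference was 0.73 ± 0.26 (SE, limma unadjusted p = 0.0459, adjusted p = 0.9999), and Elac2 was the only gene of this list under an unadjusted 0.05. Without WT 2 it was 0.69, with a limma unadjusted p of 0.13. Trmt10c, a part of the enzyme that cuts the 5′ end, stood at 7.35, 8.05, 12.6 and 10.5 FPKM. Pde12, which trims poly(A) from mitochondrial RNA, stood at 4.82, 4.09, 7.41 and 7.21 FPKM.

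Of 22 genes of mitochondrial DNA maintenance and transcription, 12 had a difference above 0 and 10 below, with a median of 0.02. Of 74 mitochondrial ribosomal protein genes it was 47 and 27 (median 0.09), with 4 on distal chromosome 11 left out. The citric acid cycle and pyruvate dehydrogenase list had 12 above 0 and 7 below among 19 (median 0.13). Idh3a, a subunit of isocitrate dehydrogenase, stood at 69.7, 38.7, 75.1 and 86.0 FPKM, lowest in WT 2. Of 10 regulators of mitochondrial biogenesis tested, 7 lay above 0 and 3 below (median 0.17). Pprc1, a coactivator of the PGC-1 family, stood at 23.1, 20.5, 33.9 and 27.4 FPKM. Ppargc1a, the gene of PGC-1alpha, stood at 4.24 FPKM in WT 1 and at 0.260 to 0.370 in the other libraries. Pcna itself stood at 155, 147, 173 and 119 FPKM, a difference of -0.07 ± 0.27 (SE, limma adjusted p = 0.9999). The name 211F is that of an altered protein, of which the RNA level is no check.

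Counts of reads are not in the table, so the depth behind each value is unknown, and no counting interval is given. With FPKM, 11 members share exon bases with another gene on the same strand and 30 on the opposite strand, and how the counting treated strand is not given in any source used here.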

How the data were processed

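RNA-seq values of 2 PCNA WT and 2 PCNA 211F libraries were used. The authors deposited 1 table of FPKM values for 50679 Ensembl genes, with no counts. The submitters' processing notes list TopHat2 2.0.13, DESeq2 and GRCm38 without saying what each was used for. Which software produced the values, with which annotation and which handling of strand and of reads with several matches, is not given in any source used here. Symbols and positions came from GENCODE M21 on GRCm38, with 310 identifiers unmatched, and the table had 0 unused library columns.

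From the deposited FPKM, log2(FPKM + 1) was fitted with limma 3.58.1 in R 4.3.3 (intensity trend, no covariates) over 12767 genes whose mean reached 1 FPKM, and p-values were adjusted by Benjamini-Hochberg over all of them. This scale understates changes of low genes. The fit was tested on simulated data. Members and lists were described by counts and medians, without a set test. Members, lists and alternatives were chosen with earlier results of these data known. Named genes were all mitochondrial members, and in each complex those of highest and lowest mean, largest differences and smallest p, with paralogs, the widest and narrowest range and up to 3 genes a wider list; some genes that this rule takes are not reported here, and other genes named, among them Ndufs1, Ndufb9, Uqcrc2, Uqcrb, Uqcrq and Atp5k, were chosen after their values were seen. Alternatives changed the pseudocount, filter, scaling, trend, replicate block and library set.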

Additional observations from a re-analysis of the deposited data

How the results depend on the processing

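No member was called in any of 13 other settings of the limma fit, where the lowest adjusted p of a member was 0.728. Members at an unadjusted p under 0.05 numbered 0 to 6; the 6 without WT 1 (6.38%) stood beside 6.55% of all genes there. Of 286 values of 22 named genes under these settings, 280 kept their direction, 5 reversed and 1 was 0. The exceptions were mt-Co1, at 0.28 after quantile normalization and between -0.40 and 0.14 with 1 library left out (0.14 without WT 1); mt-Atp8, between -0.16 (without WT 1) and 0.26, at -0.09 without 211F 2 and at 0 after quantile normalization; and Pcna, between -0.34 and 0.20 (0.20 without 211F 2). Members whose groups did not overlap went from 26 to between 51 and 69 with 1 library left out, where 1 library faces 2 (54.3% to 73.4% of members, beside 57.7% to 70.7% of all genes). The nuclear median difference ran from -0.13 to 0.10, above 0 only without 211F 1. A library left alone was assumed to vary like the others. Median-of-ratios factors lay between 0.979 and 1.03.

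The labels number the libraries but give no pairing, and the deviations of WT 1 and 211F 1 correlated at r = -0.47 across genes. With the replicate number as a block, 0 members and 0 genes were called and 142 genes, 0 of them members, had an unadjusted p under 0.05.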
